A study of Mus musculus with 194 samples.

Results

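The 30 sterol and fatty acid synthesis genes described here encode 3 regulators, 7 enzymes of the mevalonate pathway, 11 enzymes that make squalene and carry it to cholesterol, 1 sterol transport protein and 8 enzymes of fatty acid synthesis, elongation and desaturation. They were chosen by name, as a list of pathway genes, with no threshold on their values, and all 30 were found among the 23420 gene names of the expression table, Msmo1 under its older name Sc4mol.

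Animal cells build cholesterol from acetyl-CoA by way of mevalonate and squalene, and build fatty acids from the same precursor. The transcription factors SREBP-1 and SREBP-2, encoded by Srebf1 and Srebf2, raise the transcription of most of these enzymes when membrane sterols are low. They wait in the endoplasmic reticulum, bound to the escort protein Scap, and Insig proteins hold that complex back when sterols are plentiful. Dividing lymphocytes need both products for new membrane, and serum in the medium supplies lipids from outside the cell.

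The measurements were single-cell RNA-seq of cells that had grown for 2 generations from 1 founder in a microfluidic trap array, so that sisters, cousins and the hours since the last division were known. The CD8+ T-cells were isolated from the spleens of C57BL/6J mice and activated for 30 h with 5 µg/ml of plate-bound antibody against CD3 and 2 µg/ml of soluble antibody against CD28, then grown with 100 U/ml IL2 and 55 µM 2-mercaptoethanol. The L1210 cells, a lymphocytic leukemia line (DBA subline 212, 1 line obtained from ATCC), received none of these agents. Serum (10%) and antibiotics (1%) in RPMI 1640 medium were common to both types. The CD8+ mice were of mixed sex and ages, and several mice were used, but the labels name no mouse or culture for any cell. Lineages, each from 1 founder, therefore served as replicates, and the p values cover the spread between lineages and not that between mice or cultures.

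After doublets and libraries with fewer than 1000 genes above 0 TPM were left out, 97 CD8+ T-cells remained in 34 lineages and 81 L1210 cells in 26 lineages, with 9 and 7 libraries left out. TPM, which are scaled by transcript length and to the same total in every cell, keep no read depth. The study's quality metrics for each library were not used, and the number of detected genes was taken in place of depth. That number need not reflect depth alone, so correcting for it may also remove differences between the cells themselves. The number of detected genes was 2639 to 10905 in CD8+ T-cells (median 6862) and 1610 to 10454 in L1210 cells (median 8402). In L1210 cells, 3 lineages with 10 cells averaged over 9900 detected genes, the highest numbers among the 26 lineages. Several counts and correlations of L1210 cells are also given without them. The shares of variance between lineages, the pair differences and the correlations of genes that are not members are given only with them. Cell type markers followed the labels: the summed level of 6 T-cell genes was 961 to 6399 TPM in CD8+ T-cells and 0 to 45.7 TPM in L1210 cells, with Cd3e and Cd3g at 0 in every L1210 cell, while Vpreb1 and Igll1 were at 0 in every CD8+ T-cell. The B-lineage list as a whole summed to 0 to 283 TPM in CD8+ T-cells and 193 to 4621 TPM in L1210 cells, and its gene Cd79b was above 0 in 48.5% of CD8+ T-cells.

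The upstream sequences of 4 members are shown because these genes mark the range of behavior described below. Hmgcs1 followed the rest most closely once the number of detected genes was regressed out and differed between lineages in both types. Mvk differed between CD8+ T-cell lineages, and in L1210 cells it had the weakest tie to the other members. Fasn had the lowest p in the comparison by time. Ebp was the 1 member of those tested with a lower mean of log2(TPM + 1) in L1210 cells. Each sequence ends at the base before the RefSeq transcription start (GRCm38.p6), read 5′ to 3′ along the gene's strand. Capitals mark CCAAT on either strand (ATTGG on the opposite one), the letters bound by the factor NF-Y. They also mark TCACNCCAC, a form of the sterol response element, a site of SREBP binding.
Hmgcs1, chr13:119690101-119690350, plus strand: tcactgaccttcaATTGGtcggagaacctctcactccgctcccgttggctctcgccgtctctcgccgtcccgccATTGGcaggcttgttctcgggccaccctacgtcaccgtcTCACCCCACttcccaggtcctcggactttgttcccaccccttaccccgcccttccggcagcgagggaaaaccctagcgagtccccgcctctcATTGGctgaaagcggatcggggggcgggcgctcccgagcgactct
Mvk, chr5:114444019-114444268, plus strand: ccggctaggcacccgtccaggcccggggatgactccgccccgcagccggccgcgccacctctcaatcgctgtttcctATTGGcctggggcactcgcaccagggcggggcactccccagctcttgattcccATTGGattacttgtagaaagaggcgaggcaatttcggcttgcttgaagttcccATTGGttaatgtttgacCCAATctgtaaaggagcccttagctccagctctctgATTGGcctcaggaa
Fasn, chr11:120824548-120824797, minus strand: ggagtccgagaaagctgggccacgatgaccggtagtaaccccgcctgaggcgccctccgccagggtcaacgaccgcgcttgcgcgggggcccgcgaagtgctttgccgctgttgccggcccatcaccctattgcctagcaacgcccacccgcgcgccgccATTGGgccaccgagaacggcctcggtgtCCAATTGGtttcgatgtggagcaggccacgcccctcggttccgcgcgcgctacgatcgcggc
Ebp, chrX:8193513-8193762, minus strand: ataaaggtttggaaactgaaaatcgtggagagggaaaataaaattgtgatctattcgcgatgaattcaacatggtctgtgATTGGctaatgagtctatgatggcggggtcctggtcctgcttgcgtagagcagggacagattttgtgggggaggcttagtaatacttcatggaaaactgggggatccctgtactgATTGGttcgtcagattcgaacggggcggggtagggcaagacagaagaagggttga

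RefSeq promoter windows, which reach 50 bases past the start, were at hand for 23 of the 30 members. CCAAT was found in at least 1 window of 19 of these 23 genes, beside 41.1% of all genes with a window. TCACNCCAC was found in 1 of the 23, Hmgcs1, where it begins 137 bases before the start, beside 1.44% of all genes. GGGCGG, the letters of an Sp1 site, was found in 19 of 23 members and 38.2% of all genes, and TATAAA in 0 of 23 members and 15.7% of all genes. The motifs were searched as exact letters on both strands, so near matches, such as other forms of the sterol response element, were not counted. In the Fasn sequence a forward and a reverse CCAAT overlap. These matches describe letters in a window and say nothing about binding in these cells.

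The first comparison asked how the levels differ between activated CD8+ T-cells and L1210 cells. The members were higher in L1210 cells. Together they summed to a median of 814 TPM per CD8+ T-cell (70.7 to 2010) and 1474 TPM per L1210 cell (109 to 4995). In lineage means of log2(TPM + 1), 22 of the 29 members tested rose from CD8+ T-cells to L1210 cells and 0 fell at an adjusted p under 0.05 (limma on 34 and 26 lineages, Benjamini-Hochberg over 11373 genes). Among all genes tested 63.1% were called, 49.8% as higher in L1210 cells and 13.3% as higher in CD8+ T-cells, so a shift toward L1210 cells was common in the table. The median difference was 1.38 on the log2 scale over the members and 0.59 over all genes, and 25 of 29 members lay above 0.59. The lineage means of the 2 types overlapped for each member, as they did for all but 1.42% of the genes tested. The member left out was Fads2, the fatty acid desaturase next to Fads1 on chromosome 19, which was detected (above 0 TPM) in 4 CD8+ T-cells and 3 L1210 cells and failed the filter on low values.

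**Figure D1:**
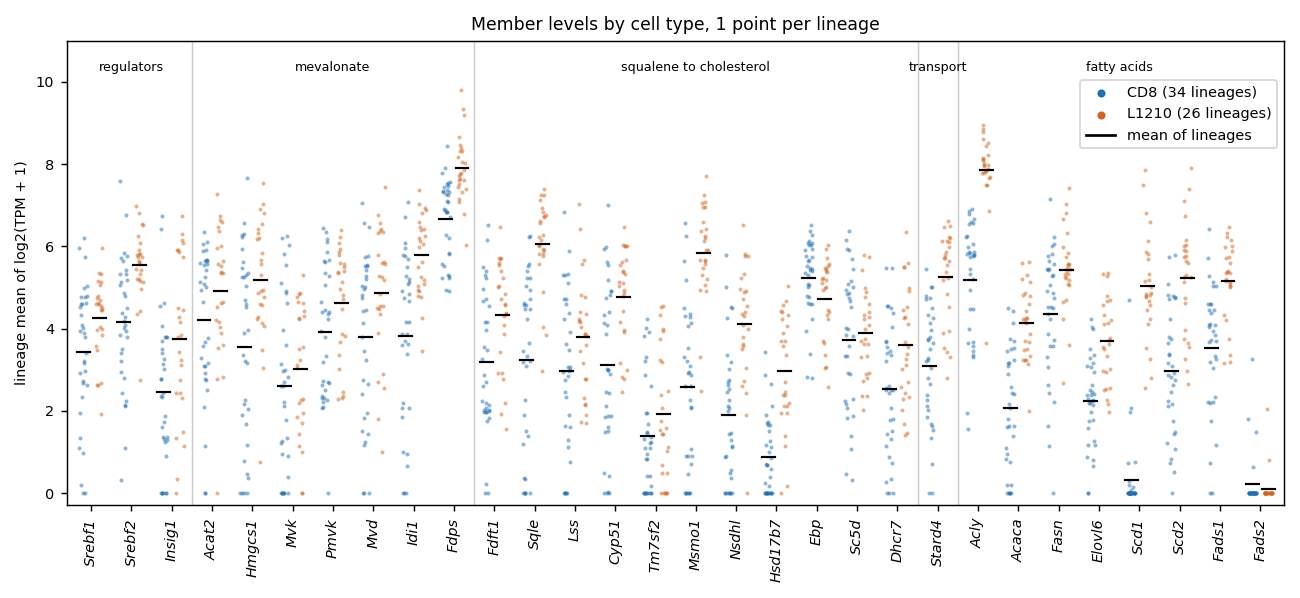
Lineage means of log2(TPM + 1) for the 30 members (horizontal axis, ordered by role) in 34 CD8+ T-cell lineages (blue) and 26 L1210 lineages (orange), with the mean of the lineages as a black bar. Scd1 is near 0 in most CD8+ T-cell lineages and between 2.55 and 7.87 in L1210 lineages, and the ranges of the 2 types overlap for every member.

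The number of detected genes moved with cell type as well (medians of 6862 and 8402). With the log number of detected genes as a covariate, 15 members were higher in L1210 cells and 1, Ebp, was higher in CD8+ T-cells, against 35.3% and 17.6% of all genes. With each cell centered on its mean log2 level, which brings the median difference of all genes to 0.00, the counts were 16 and 1, against 26.6% and 26.7% of all genes. Dhcr7, Fasn, Fdft1, Insig1, Mvd and Srebf1 lost their call in both of these fits and Hmgcs1 in the former. Without the 3 L1210 lineages of most detected genes, 18 members were higher in L1210 cells and Ebp was higher in CD8+ T-cells, against 44.3% and 13.7% of all genes. Dhcr7, Insig1, Mvd and Srebf1 lost their call in that fit too.

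**Figure D2:**
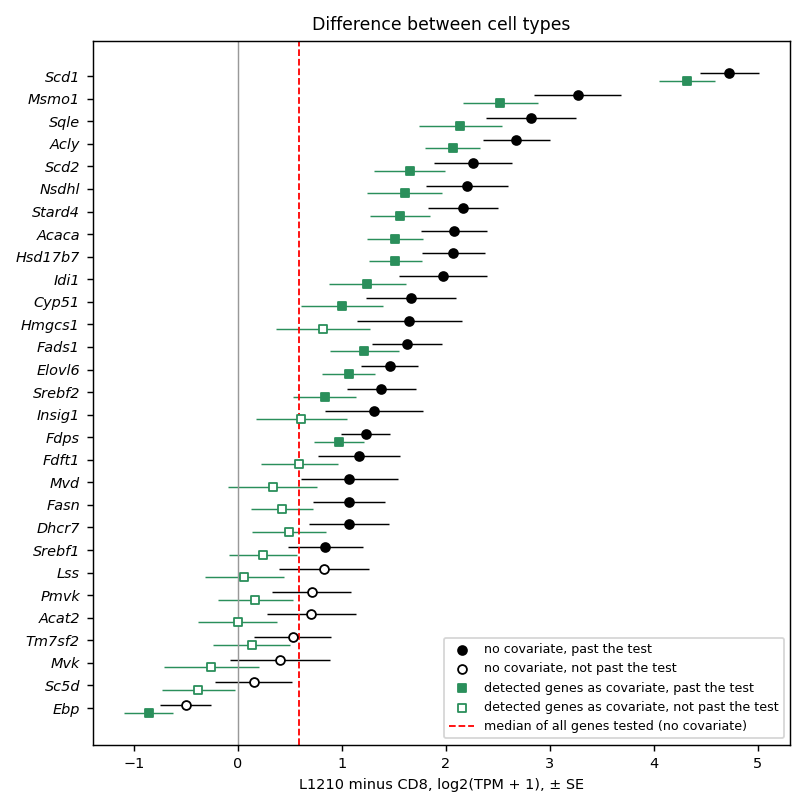
Difference between L1210 and CD8+ T-cells in lineage means of log2(TPM + 1), with its SE, for the 29 members tested, without a covariate (circles) and with the log number of detected genes as a covariate (squares). Filled symbols passed an adjusted p of 0.05, and the dashed line is the median of all genes without the covariate, 0.59. Scd1, at 4.72, is far to the right of the others, and Ebp, at -0.50, is the only member below 0 without the covariate.

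Of the genes that desaturate, elongate and build fatty acids, 7 of 7 members tested were higher in L1210 cells, beside 49.8% of all genes, with a median summed level of 142 TPM in CD8+ T-cells and 487 TPM in L1210 cells. Scd1, a stearoyl-CoA desaturase that makes monounsaturated fatty acids, was detected in 12 of 97 CD8+ T-cells, at up to 25.1 TPM, and in 77 of 81 L1210 cells, at a median of 41.9 TPM and up to 278 TPM. Its lineage means differed by 4.72 ± 0.28 (SE) on the log2 scale (limma adjusted p = 4.43e-23). The CD8+ T-cell at 25.1 TPM was the only one of its lineage, and the other CD8+ T-cell lineages reached at most 2.07 in their mean of log2(TPM + 1), below the lowest L1210 lineage at 2.55. Scd2, its neighbor at chr19:44293674-44306864 (Scd1 is at chr19:44394455-44407879, both GRCm38), was detected in 76.3% of CD8+ T-cells (median 8.07 TPM) and 95.1% of L1210 cells (median 46.6 TPM), a difference of 2.26 ± 0.38. Reads shared by these paralogs may have been split between them when TPM were estimated, so the level of either is uncertain.

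Acly, the enzyme that frees acetyl-CoA from citrate for both pathways, had the highest median of all members in L1210 cells. Its lineage means ran from 1.56 through a median of 5.77 to 6.91 in CD8+ T-cells and from 3.65 through 7.96 to 8.95 in L1210 cells. The difference was 2.68 ± 0.32 (SE; limma adjusted p = 9.11e-11). Acaca, acetyl-CoA carboxylase, rose by 2.08 ± 0.32, from a median of 1.21 TPM in CD8+ T-cells to 19.2 TPM in L1210 cells. Fasn, fatty acid synthase, differed less, by 1.07 ± 0.35 (adjusted p = 0.00659), from a median of 30.1 to 44.4 TPM. Elovl6, an elongase, and Fads1, a desaturase of polyunsaturated fatty acids, differed by 1.46 ± 0.27 and 1.62 ± 0.34.

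Among the 11 enzymes from squalene to cholesterol, 7 were higher in L1210 cells, beside 49.8% of all genes, and 4 did not pass the test. Msmo1, which oxidizes the sterol methyl groups, had lineage means from 0 through a median of 2.75 to 6.58 in CD8+ T-cells and from 2.48 through 5.91 to 7.71 in L1210 cells, a difference of 3.27 ± 0.42 (SE; limma adjusted p = 7.75e-10). Sqle, squalene epoxidase, a rate-limiting step, ran from 0 through 3.56 to 6.24 in CD8+ T-cells and from 2.98 through 6.19 to 7.40 in L1210 cells, a difference of 2.82 ± 0.43. The higher lineages of both types met in each of these genes, while the lowest values were all in CD8+ T-cells. Nsdhl and Hsd17b7, which act with Msmo1 in the removal of these methyl groups, differed by 2.20 ± 0.39 and 2.07 ± 0.30. Both had a median of 0 TPM over CD8+ T-cells, with detection in 45.4% and 29.9% of the cells, and Hsd17b7 reached a median of 8.97 TPM in L1210 cells.

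Cyp51, the lanosterol demethylase (1.67 ± 0.43), Fdft1, squalene synthase (1.16 ± 0.39), and Dhcr7, which catalyzes a last step to cholesterol (1.07 ± 0.38), were also higher in L1210 cells. Lss, lanosterol synthase (0.83 ± 0.43), Tm7sf2, a sterol reductase (0.53 ± 0.37), and Sc5d, a sterol desaturase (0.15 ± 0.37), had smaller differences that did not pass. Ebp, the sterol isomerase, did not pass either. Its lineage means were 2.79 to 6.53 in CD8+ T-cells (median 5.44) and 2.59 to 6.04 in L1210 cells (median 5.05), a difference of -0.50 ± 0.25 (SE; limma adjusted p = 0.0713). Across 14 alternative settings its adjusted p ranged from 1.99e-05 to 0.176, with a call of higher in CD8+ T-cells in 4 of them. In the GENCODE annotation of GRCm38, exons of Fdft1 share 774 bases with Ctsb on the opposite strand. Exons of Tm7sf2 share 532 bases with Vps51 on the same strand. Among the mevalonate enzymes, exons of Fdps share 1124 bases (26.7%) with Gm43738 on the same strand. Exons of Hmgcs1 share 557 bases (12.1%) with the antisense gene Gm48342, and exons of Idi1 share 323 bases with Gm48574 on the opposite strand. The library preparation does not keep strand, and strand would not separate the pairs on the same strand. Reads of all these pairs may therefore be mixed, and these levels are uncertain to that extent.

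Of the 7 mevalonate enzymes, 4 were higher in L1210 cells, a share near the 49.8% of all genes. Idi1, isopentenyl diphosphate isomerase, had lineage means from 0 through 4.16 to 7.09 in CD8+ T-cells and from 3.46 through 6.03 to 7.37 in L1210 cells, a difference of 1.97 ± 0.42 (SE; limma adjusted p = 5.69e-05). Fdps, farnesyl diphosphate synthase, had the highest median of the members in CD8+ T-cells, 131 TPM, and 223 TPM in L1210 cells, where it was detected in 81 of 81 cells. Its lineage means differed by 1.23 ± 0.24. Hmgcs1, which makes HMG-CoA, ran from 0 through 3.93 to 7.67 in CD8+ T-cells and from 0.76 through 5.12 to 7.53 in L1210 cells, a difference of 1.65 ± 0.50 (adjusted p = 0.00373). The spread of Hmgcs1 between lineages was wide in both types. Mvd, a decarboxylase, differed by 1.07 ± 0.47, close to the threshold (adjusted p = 0.0415). Acat2, which joins acetyl-CoA units (0.71 ± 0.43), and the kinases Mvk (0.41 ± 0.48) and Pmvk (0.71 ± 0.38) did not pass.

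The 3 regulators were higher in L1210 cells, beside 49.8% of all genes, with smaller differences than the leading enzymes. Over 14 alternative settings Srebf2 was called in 14, Insig1 in 11 and Srebf1 in 9. Srebf2 had a median of 22.8 TPM in CD8+ T-cells and 54.4 TPM in L1210 cells, a difference in lineage means of 1.38 ± 0.33 (SE; limma adjusted p = 0.000336). Srebf1 had medians of 18.9 and 23.7 TPM and a difference of 0.84 ± 0.36 (adjusted p = 0.0381). Insig1, itself a target of the SREBPs, had medians of 3.22 and 18.2 TPM and a difference of 1.31 ± 0.47 (adjusted p = 0.0130). Stard4, a carrier of sterols between membranes, had medians of 12.92 and 49.98 TPM and a difference of 2.16 ± 0.34.

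Of 18 other genes of lipid supply, sterol sensing and efflux, 16 were tested, 9 were higher in L1210 cells and 2 higher in CD8+ T-cells, shares near the 49.8% and 13.3% of all genes. Slc25a1, the mitochondrial carrier that exports citrate to Acly, had medians of 25.6 TPM in CD8+ T-cells and 239 TPM in L1210 cells, a difference of 3.71 ± 0.40 (SE; limma adjusted p = 2.14e-12). Scap and the proteases Mbtps1 and Mbtps2, which release the SREBPs, differed by 1.70 ± 0.34, 2.42 ± 0.28 and 1.41 ± 0.23, and Insig2 did not pass (0.42). Both sterol exporters of the list were called, in opposite directions. Abca1 was detected in 5 of 97 cells in the CD8+ group and 64 of 81 L1210 cells (2.02 ± 0.24), and Abcg1 in 46 and 3 (-1.30 ± 0.27). Tmem97, Ggps1, Mylip and Soat1 were higher in L1210 cells by 1.28 to 2.10, Lpin1 was lower (-0.81 ± 0.26), and Acss2, Acsl3, Elovl5 and Nr1h2 did not pass. Me1 and Nr1h3 failed the filter on low values.

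The next question was whether the members vary together from cell to cell. Across the 97 CD8+ T-cells the median Pearson r over 378 pairs of members was 0.217, beside 0.0955 over pairs of all genes kept. Across the 81 L1210 cells it was 0.389 over 406 pairs, beside 0.157. There 100% of the member pairs were positive, beside 86.97% of the pairs of all genes kept. Cells of a lineage share a founder and all genes of a cell share its library, and the summed level of the members followed the number of detected genes (r of the log2 values 0.482 in CD8+ T-cells and 0.489 in the L1210 cells). After the log number of detected genes was regressed out, the medians fell to 0.0691 in CD8+ T-cells, where 67.7% of the pairs were positive, and 0.173 in L1210 cells, where 83.7% were, beside 0.00824 and 0.00499 for all genes. Without the 3 L1210 lineages of most detected genes the medians of L1210 cells were 0.308 (0.141 for all genes) and, corrected, 0.125 (0.00286). The values below are on the corrected scale.

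**Figure D3:**
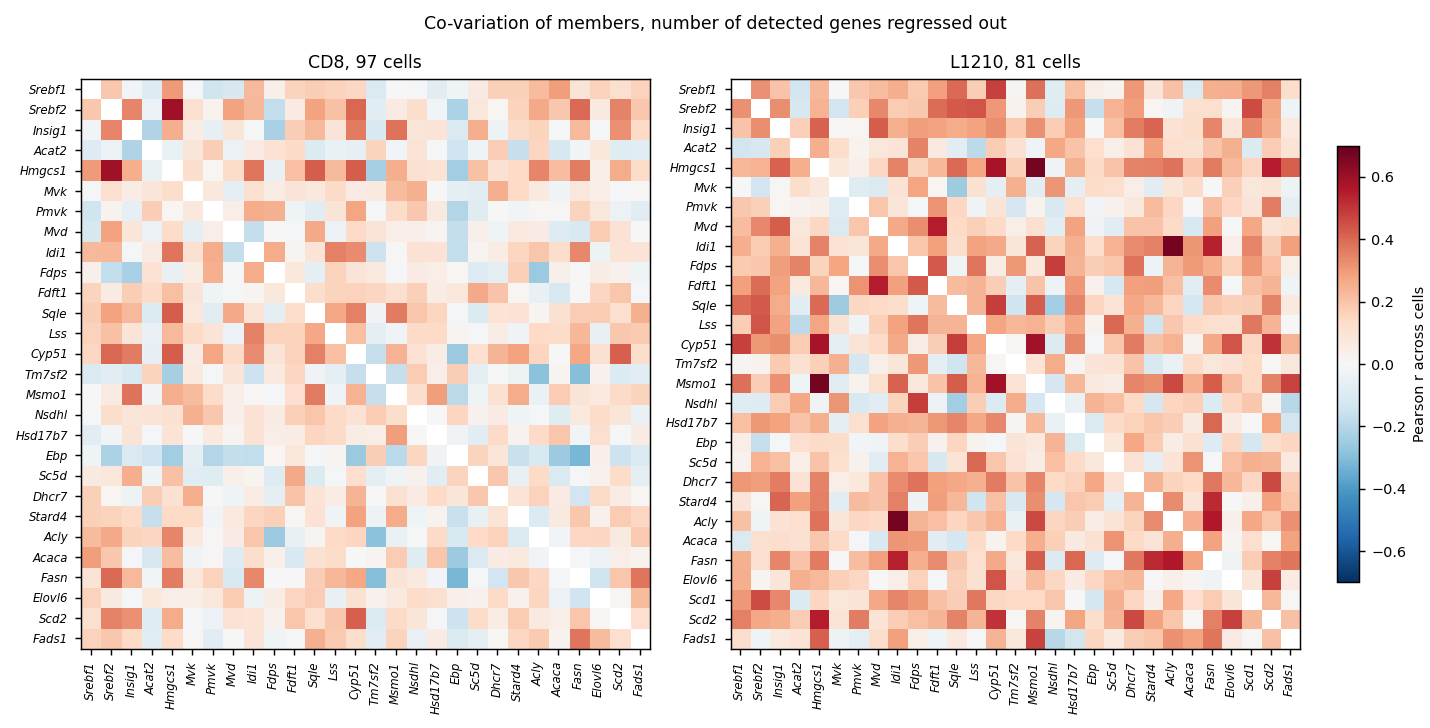
Pearson r between members across 97 CD8+ T-cells (left) and 81 L1210 cells (right) after the log number of detected genes was regressed out, with members ordered by role on both axes and red for positive values. The L1210 panel is redder, with Hmgcs1, Idi1, Cyp51, Msmo1, Fasn and Scd2 forming red bands, and the Ebp row in CD8+ T-cells is mostly blue.

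Hmgcs1 was the member most like the rest in both types, with an r of 0.560 in CD8+ T-cells and 0.635 in the L1210 cells against the mean of the other members. The order depends on that correction. Without it Cyp51 was first in CD8+ T-cells (0.672, Hmgcs1 3rd at 0.618) and Fasn was first in L1210 cells (0.804, Hmgcs1 8th at 0.692). On the corrected scale in CD8+ T-cells it was followed by Cyp51 (0.535), Srebf2 (0.476) and Sqle (0.424), and in L1210 cells by Scd2 (0.577), Idi1 (0.573), Msmo1 (0.556) and Fasn (0.551). The closest pair in CD8+ T-cells was Srebf2 with Hmgcs1, a regulator and its known target (r = 0.593). In L1210 cells the closest were Hmgcs1 with Msmo1 (r = 0.668) and Idi1 with Acly (r = 0.667). In CD8+ T-cells 25 of 28 members had a positive r with the others, and the exceptions were Acat2 (-0.01), Tm7sf2 (-0.11) and Ebp (-0.24). A positive r was common among all genes, since Acat2, just below 0, lay above only 34.4% of the genes that are not members. Above the 90th percentile of those genes lay 15 of 28 members in CD8+ T-cells. Ebp had a negative r with 19 of its 27 partners there and with 8 of 28 in L1210 cells. In L1210 cells all 29 members had a positive r, the lowest being Mvk (0.0950). Without the 3 lineages Hmgcs1 was again first (0.636), the same pairs led (0.669 for Idi1 with Acly and 0.657 for Hmgcs1 with Msmo1), and Mvk was at -0.03. The members next to Hmgcs1 changed, to Cyp51 (0.558), Idi1 (0.555), Msmo1 (0.544) and Dhcr7 (0.488). Scd2 was then 6th (0.486) and Fasn 9th (0.438).

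Of the wider list, none had an r above 0.198 (Acsl3) with the members in CD8+ T-cells. In L1210 cells Slc25a1 reached 0.415, and Elovl5, Acss2, Mbtps2, Mbtps1 and Ggps1 lay between 0.224 and 0.260, whereas Scap (0.0523), Insig2 (-0.01) and Soat1 (-0.03) did not follow. Among genes outside both lists, Gpbp1 (0.555) and Rassf5 (0.527) had the highest r in CD8+ T-cells, and Gdi2 (0.543), Phlpp1 (0.493) and Nucks1 (0.486) had the highest r in L1210 cells.

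The co-variation was weaker within lineages than between them. Among cells taken about their lineage means, the median r was 0.0362 in CD8+ T-cells and 0.0836 in the L1210 cells, and among lineage means it was 0.118 (34 lineages) and 0.271 (26 lineages). The order was the same without the correction for detected genes, 0.138 and 0.328 in CD8+ T-cells and 0.251 and 0.559 in L1210 cells. Without the 3 L1210 lineages the corrected values of L1210 cells were 0.0748 within lineages and 0.165 among 23 lineage means. Lineage means average out noise of single cells, which alone raises a correlation, and the 2 kinds of value were not tested against each other.

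Whether relatives hold alike levels was asked with a moderated F-test of lineage over the cells of lineages with 2 or more cells. In CD8+ T-cells 8 of 28 members tested differed between 27 lineages of 90 cells (limma, Benjamini-Hochberg over 9997 genes), beside 12.4% of all genes. They were Hmgcs1, Cyp51, Sqle, Idi1, Scd2, Mvk, Acly and Fasn. With hours since division as a covariate 6 of 28 were called, without Acly and Fasn, beside 1025 of 9997 genes. Cells of a lineage mostly had like times, so in either type such a fit can hardly take time out of the differences between lineages. In L1210 cells 12 of 29 members differed between 24 lineages of 79 cells, beside 12.9% of all genes. They were Hmgcs1, Insig1, Fdps, Scd2, Fasn, Hsd17b7, Tm7sf2, Scd1, Mvd, Acat2, Acly and Srebf2. With hours as a covariate 10 of 29 were called, beside 1106 of 10536 genes. Acat2, Acly, Mvd, Scd1 and Srebf2 lost their call in that fit, and Dhcr7, Msmo1 and Mvk gained one. The share of the variance that lay between lineages had a median of 0.126 over the members in CD8+ T-cells and 0.233 in the L1210 cells, beside 0.0902 and 0.109 over all genes.

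**Figure D4:**
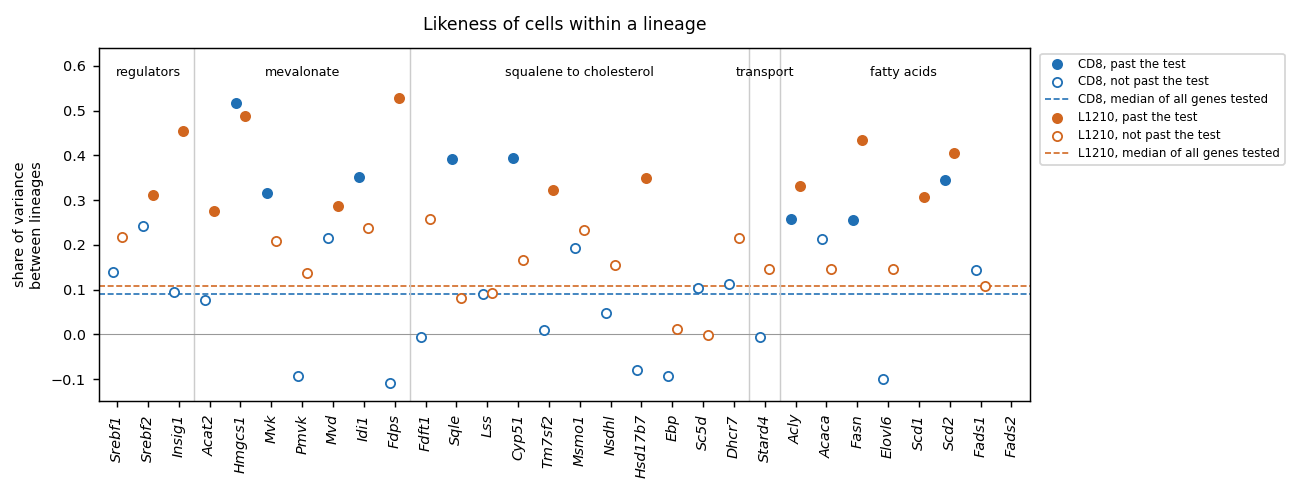
Share of the variance in log2(TPM + 1) that lay between lineages for each member (horizontal axis, by role) in CD8+ T-cells (blue) and L1210 cells (orange). Filled points passed an adjusted p of 0.05, and dashed lines are the medians of all genes, 0.0902 and 0.109. Hmgcs1 is near 0.5 in both types, and Sqle and Cyp51 are filled in CD8+ T-cells alone.

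Hmgcs1 had the lowest p of the members in both types. In CD8+ T-cells its levels were 0 TPM in all cells of a lineage of 3 and a lineage of 4, 47.1 to 112 TPM in the cells of 1 lineage of 4, and 59.8 and 101.9 TPM in a pair of sisters, although another lineage of 4 spanned 2.11 to 236 TPM. The share between lineages was 0.516 (limma F-test adjusted p = 3.16e-05). In L1210 cells the lowest lineage held 0 to 7.33 TPM in its 4 cells and the next lowest 0 to 32.6 TPM, whereas a high pair of cells held 125 and 135 TPM and the highest pair 150 and 226 TPM. The share was 0.489 (adjusted p = 0.000388). Sisters differed in Hmgcs1 by 1.91 on the log2 scale on average in CD8+ T-cells (43 pairs), cousins by 1.76 (72 pairs) and unrelated cells by 2.95. In L1210 cells these values were 1.07 (38 pairs), 1.23 (62 pairs) and 1.97.

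In CD8+ T-cells the other members with large shares were sterol enzymes, Cyp51 (0.395, limma F-test adjusted p = 0.00227) and Sqle (0.393, adjusted p = 0.00242), followed by Idi1 (0.351) and Scd2 (0.344). In L1210 cells they were Fdps (0.529, adjusted p = 0.00255), Insig1 (0.454, adjusted p = 0.000675), Fasn (0.435) and Scd2 (0.405). Insig1 was at 0 TPM in the 3 cells of 1 L1210 lineage and 0 to 1.53 TPM in the 4 cells of the next, against 100 and 110 TPM in the highest pair. Fdps in CD8+ T-cells had a share of -0.11, and sisters differed there by 1.97 on average and unrelated cells by 1.98. The test of lineage was made in each type on its own, and whether a member's share differed between the types was not tested. Sisters and cousins both differed less than unrelated cells on average in 20 of the 28 members tested in CD8+ T-cells, beside 59.7% of all genes, and in 27 of 29 in L1210 cells, beside 61.5%. Of the wider list, 2 of 15 genes tested, Scap and Mylip, differed between CD8+ T-cell lineages, a share near the 12.4% of all genes. Between L1210 lineages 3 of 13 differed, Tmem97, Ggps1 and Abca1, beside 12.9% of all genes.

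The number of detected genes also differed between lineages, and its values moved with these results. With each cell centered on its mean, 6 of 28 members were called in CD8+ T-cells (8.66% of all genes) and 3 of 29 in the L1210 cells (4.51%). An unweighted Mann-Whitney U-test of related against unrelated pairs, in which pairs share cells so that p values are too small, called 8 members in CD8+ T-cells (8.80% of all genes) and 10 in the L1210 cells (5.17%). With detected genes as a covariate, Hmgcs1, Sqle, Cyp51 and Mvk were called in CD8+ T-cells (4 of 28, beside 9.16% of all genes) and Hmgcs1, Insig1, Fdps and Scd2 in L1210 cells (4 of 29, beside 4.28%). In L1210 cells the 3 lineages of most detected genes, averaging 9961, 10068 and 10442, were also the 3 highest in summed member level, with lineage means of 2954, 3176 and 4446 TPM. The other 23 lineages ran from 949 to 2339 TPM. The share of Rn45s, a ribosomal RNA transcript, was 12.5 to 15.6% of TPM in these 3 lineages and 18.5 to 53.3% in the others. Its part in the difference between them was not tested. With Rn45s removed and TPM rescaled, the F-test of lineage called 10 of 29 members in L1210 cells, without Acat2 and Srebf2, beside 1114 of 10643 genes. All 29 members tested had a higher mean of log2(TPM + 1) in these 3 lineages than in the rest, by 1.03 to 2.91 with a median of 1.67, beside a median of 0.70 over all genes, of which 94.2% had a higher mean there. For 9 members, Srebf1, Srebf2, Fdps, Fdft1, Lss, Acaca, Fasn, Scd1 and Scd2, each of the 3 lineages lay above each of the 23, beside 1.39% of all genes. Without these 3 lineages 2 members were called in L1210 cells, Hmgcs1 (adjusted p = 0.00592) and Insig1 (adjusted p = 0.0189, limma F-test), beside 5.79% of all genes. The 3 lineages were set apart by their detected genes after the data had been seen. A lineage cannot be told apart from the device run, or from any library preparation, that its cells shared.

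**Figure D5:**
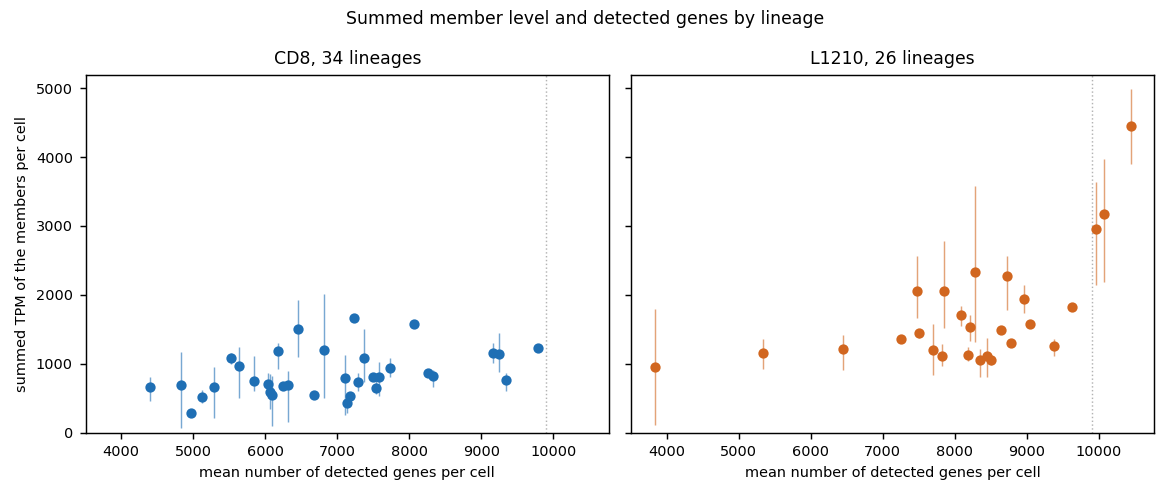
Summed TPM of the 30 members (vertical axis, linear, from 0) against the mean number of detected genes per cell for each of 34 CD8+ T-cell lineages (left) and 26 L1210 lineages (right). Points are lineage means, vertical lines run from the lowest to the highest cell of a lineage, and the dotted line is at 9900 genes. The 3 L1210 lineages to the right of that line have means of 2954, 3176 and 4446 TPM, above the other 23.

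The last comparison asked whether the members change with time since division. Times were known for 31 CD8+ T-cell lineages (cells at 0.5 to 9.48 h) and 26 L1210 lineages (0.354 to 12.8 h). In CD8+ T-cells 0 of 28 members passed at an adjusted p under 0.05 in a limma fit of the slope over lineage means, beside 0.0400% of all genes, and 9 of 28 had an unadjusted p under 0.05, beside 13.1%. A fit with a squared term and a fit to single cells with a lineage correlation called 0 members as well. Of the slopes 23 of 28 were below 0, beside 68.3% of all genes, and 8 of these had an unadjusted p under 0.05, beside 11.2%. The 8 were Fasn, Idi1, Srebf1, Hmgcs1, Acly, Scd2, Lss and Fads1, and the 1 positive slope at that level was Tm7sf2.

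Fasn had the lowest p. In CD8+ T-cells its lineage means had a median of 5.65 in the 9 lineages at under 3 h (3.57 to 7.16), 4.53 in the 13 lineages from 3 to under 6 h (1.63 to 5.82) and 3.58 in the 9 lineages at 6 h or more (1.15 to 5.31). The 3 ranges overlapped, and the lineages at under 3 h had the highest median. The slope was -0.37 ± 0.09 per hour (SE; p = 0.000320, limma adjusted p = 0.0855). Idi1 had medians of 5.50, 4.16 and 3.38 in the same lineages and a slope of -0.44 ± 0.11 (p = 0.000491, limma adjusted p = 0.0886). Over 12 alternative settings the adjusted p ranged from 0.0563 to 0.153 for Fasn and from 0.0650 to 0.291 for Idi1, and the highest value for Idi1 came when lineages of 1 cell were left out.

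In L1210 cells 0 of 29 members passed, and 0 had an unadjusted p under 0.05, beside 5.33% of all genes. Of the slopes 14 of 29 were below 0, beside 57.9% of all genes, and they ran from -0.11 (Mvd) to 0.13 (Insig1) per hour. Fasn had medians of 5.46, 5.56 and 5.32 in the 8, 7 and 11 L1210 lineages of the same ranges of time, a slope of -0.05 ± 0.05 per hour. The difference of slopes between the types, tested as an interaction in 1 limma fit, passed for 0 of 29 members. At an unadjusted p under 0.05 it held for 6 members, beside 10.8% of all genes, each with the higher slope in L1210 cells: Idi1 (0.38 ± 0.12), Fasn (0.31 ± 0.10), Hmgcs1 (0.41 ± 0.17), Lss, Srebf1 and Fads1. Hours and the log2 number of detected genes had a correlation of -0.13 across 94 CD8+ T-cells and -0.16 across 81 L1210 cells.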

How the data were processed

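Each cell gave 1 Smart-Seq2 library. Per the labels and the study's methods, the authors aligned reads to mm10 and estimated expression with RSEM 1.2.3, and they deposited it as TPM for 23420 gene names, of which 27 had been turned into dates by spreadsheet software. An exact 0 can be a failed estimate or a transcript that was not detected, and need not mean that the cell lacked it. Lineages were built from the sister and cousin labels, of which 4 were not reciprocated. Values were taken as log2(TPM + 1), on which differences of low genes are understated. Genes with ln(TPM + 1) over 1 in more than 10% of the cells were kept, for the comparison of types in those of either type. Tests used limma 3.58.1 in R 4.3.3 over all genes kept, with Benjamini-Hochberg adjustment, and were tried on simulated data. The simulated cells had independent normal noise, without the many exact zeros of these data and without likeness of relatives in unchanged genes. They therefore do not show how the tests behave under those conditions. Correlations are descriptions without a test. All 30 members are reported, with other pathway genes as counts and with the genes outside both lists most like them, up to 3 in each type. Some genes are not reported here. The members, lists and tests were chosen with earlier results of these data known. Coordinates and sequences come from GENCODE M21 and RefSeq annotations of GRCm38, the build called mm10. Analysis used Python 3.11.15, numpy 2.4.6 and pandas 2.3.3.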

Additional observations from a re-analysis of the deposited data

How the results depend on the processing

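No paired analysis was possible because the number in a cell's title only names it and the tests take lineages, which share no number between groups. The alternatives were the pseudocount, filter, minimum of detected genes, scaling, covariates, unit and test, and, chosen after seeing the data, centered cells and the lineages over 9900 detected genes left out. The count of members higher in L1210 cells ran from 15 to 24 over 14 alternatives. The count higher in CD8+ T-cells, 0 of 29, became 1 (Ebp) with detected genes as a covariate, with centered cells, with a pseudocount of 10 TPM and without the lineages over 9900 detected genes. The members that differed between CD8+ T-cell lineages fell from 8 to 4 with detected genes as a covariate and otherwise ran up to 9. Those in L1210 cells fell from 12 to 4 with that covariate, to 3 with centered cells and to 2 without the 3 lineages, and reached 15 with a pseudocount of 10 TPM. An unweighted Mann-Whitney U-test on pairs, which share cells so that its p values are too small, called 8 members in CD8+ T-cells (5 of them the same) and 10 in L1210 cells (9 of them the same). No alternative called a member by hours. Median r fell from 0.217 to 0.0691 in CD8+ T-cells and from 0.389 to 0.173 in L1210 cells with detected genes regressed out, and to 0.125 in L1210 cells when the 3 lineages were left out as well. No member called in the report reversed, and in 8 of 405 comparisons of single members by cell type a difference that was not called changed sign. Without read counts, precision for weakly expressed members such as Tm7sf2 and Hsd17b7 is unknown.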

Other observations

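The 9 CD8+ libraries left out comprised 4 doublets, with a summed member level of 637 to 1732 TPM and 19 to 21 of the 30 members above 0, and 5 libraries under 1000 detected genes, with 0 to 469 TPM and 0 to 2 members above 0. The 7 L1210 libraries left out comprised 2 doublets, at 619 and 1631 TPM with 6 and 9 members above 0, and 5 libraries under 1000 detected genes, at 0 to 3031 TPM with 0 to 5 members above 0. The summed level of the shallowest L1210 libraries thus reached 3031 TPM on at most 5 detected members, while that of the single L1210 cells kept ran from 109 to 4995 TPM.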
